A study of Bos taurus with 64 samples.

Results

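MicroRNAs (miRNAs) are short RNAs that lower the stability and translation of the mRNAs they pair with. The 3 miRNAs described here, bta-miR-150, bta-miR-155 and bta-miR-342 in the cattle (bta) naming, are best known from lymphocytes, and they were picked by name among the 1030 miRNA names counted in skeletal muscle of steers. All 3 had a count in each of the 64 libraries, and all 3 were among the 318 names that passed the filter on low counts. Their mature sequences were not analysed here.

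The libraries came from Charolais steers, a beef breed, and Holstein-Friesian steers, a dairy breed. The steers had been ranked by residual feed intake (RFI), the feed an animal eats above or below what its size and growth predict, so that a low-RFI animal is the more efficient. Each breed was sampled at the end of a phase on fresh cut grass and of a later phase in which rolled barley concentrate was offered freely and grass silage was restricted. This gave 8 groups of 8 libraries: high and low RFI, in each breed, on each diet. No drug, transgene or other treatment was part of the design. The 64 libraries came from 59 steers, because 5 steers gave a library on both diets. Concentrate always followed grass, so diet, age and phase cannot be told apart.

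miR-150 accumulates in mature B, T and natural killer cells and represses the transcription factor MYB. miR-155, cut from the BIC transcript, is induced when lymphocytes and macrophages are activated, and other cells of a tissue can make it too. miR-342 is encoded in an intron of EVL, a gene for an actin regulator, and is found in lymphocytes and, at lower levels, in other tissues. Muscle fibres are not known as a main source of miR-150, so in a whole muscle sample such miRNAs can come from blood and from cells between the fibres. In such bulk RNA, fewer lymphocytes and less of a miRNA per lymphocyte cannot be told apart.

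Total counts per library ran from 4795950 to 12245155, and the TMM scaling factors that set libraries to a common scale ran from 0.511 to 2.43. The highest factor belonged to high-RFI Holstein-Friesian grass replicate 1, which stood apart by a low share of miR-10b (19.3%), the most abundant miRNA. miR-486, of muscle fibres and red blood cells, and the muscle fibre marker miR-133a averaged 104825 and 74317 CPM (a miRNA's share of its TMM-scaled library, as in edgeR), while the liver marker miR-122 had a count in 13 of 64 libraries and averaged 0.049 CPM. The erythrocyte marker miR-451 ran from 298 to 49098 CPM over the 64 libraries.

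The 3 lymphocyte miRNAs were of middle abundance. bta-miR-342 was the highest, at 76.2 ± 15.4 CPM (SD, n = 64), which ranked 93 of the 318 tested miRNAs. bta-miR-150 followed at 30.4 ± 11.7 CPM (rank 128), and bta-miR-155 was the lowest of the 3 at 14.95 ± 5.91 CPM (rank 156). The median tested miRNA averaged 13.8 CPM. The counts behind these levels ran from 276 to 2533 per library for miR-342, from 76 to 1148 for miR-150 and from 35 to 902 for miR-155, so counting error is largest for miR-155.

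miR-342 was also the steadiest of the 3. Its SD within groups was 0.21 on the log2 scale, and only 3.46% of the tested miRNAs had a smaller one. miR-150 (0.44) and miR-155 (0.46) varied about as much as the median tested miRNA (0.42).

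Across the 8 groups, miR-150 was highest in high-RFI Holstein-Friesian steers on concentrate (44.4 ± 13.4 CPM, SD, n = 8) and lowest in low-RFI Holstein-Friesian steers on grass (23.6 ± 4.20). The other groups lay in this order: low-RFI Charolais on concentrate (36.2 ± 12.8), low-RFI Charolais on grass (30.5 ± 8.96), high-RFI Charolais on concentrate (30.3 ± 10.6) and on grass (29.5 ± 12.4), high-RFI Holstein-Friesian on grass (24.8 ± 9.04) and low-RFI Holstein-Friesian on concentrate (24.3 ± 7.09).

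miR-342 had the same highest and lowest groups, at 94.99 ± 29.1 and 66.3 ± 9.22 CPM (SD, n = 8). Between them came low-RFI Charolais on concentrate (83.8 ± 9.58), low- and high-RFI Charolais on grass (77.1 ± 10.8 and 76.3 ± 7.03), high-RFI Charolais on concentrate (72.4 ± 10.8), low-RFI Holstein-Friesian on concentrate (71.7 ± 6.15) and high-RFI Holstein-Friesian on grass (66.8 ± 8.53).

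miR-155 was ordered by breed. The 4 Holstein-Friesian groups came before the 4 Charolais groups, from 19.9 ± 10.3 CPM in low-RFI Holstein-Friesian steers on grass, through 16.5 ± 8.03 (high RFI, grass), 16.2 ± 4.55 (high RFI, concentrate) and 16.1 ± 4.71 (low RFI, concentrate), to the Charolais groups at 13.7 ± 3.33 (low RFI, concentrate), 13.5 ± 3.39 (high RFI, concentrate), 12.8 ± 3.64 (high RFI, grass) and 10.9 ± 1.95 (low RFI, grass). For all 3 miRNAs, every gap between neighbours in the order was smaller than the larger of the SDs of the neighbouring groups.

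**Figure D1:**
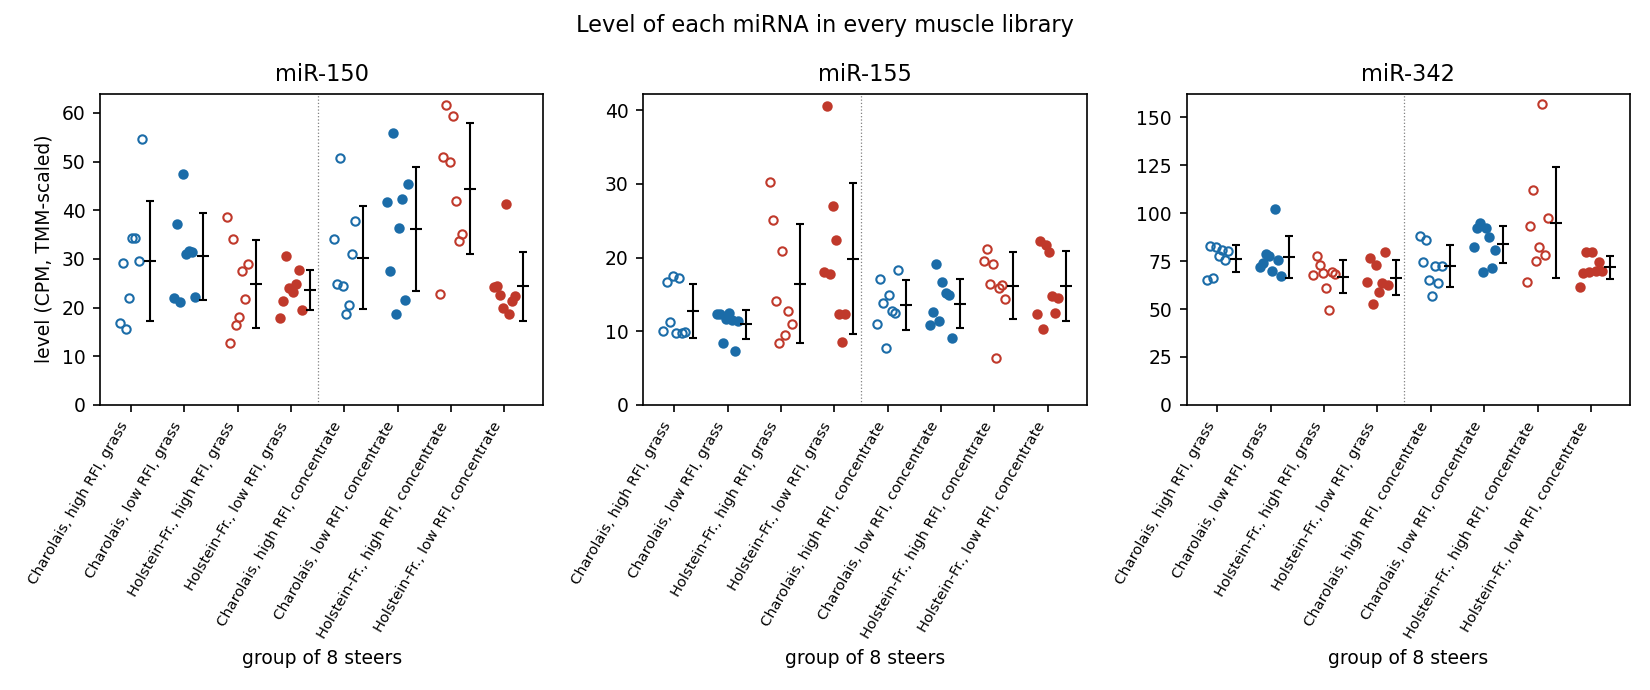
Level of miR-150, miR-155 and miR-342 (CPM with TMM scaling, linear axis) in each of the 8 libraries of each group, open circles for high RFI and filled ones for low RFI, Charolais in blue and Holstein-Friesian in red, with the mean and SD beside the points. The high-RFI Holstein-Friesian steers on concentrate have the highest means of miR-150 (44.4 CPM) and miR-342 (94.99 CPM), and the highest single value of miR-155 (40.6 CPM) is in a low-RFI Holstein-Friesian library on grass.

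Breed was compared to ask whether muscle of a dairy and a beef breed differs in these miRNAs. On grass, miR-155 ranged in Charolais libraries from 7.35 CPM through a median of 11.4 to 17.5 (n = 16). In Holstein-Friesian libraries it ranged from 8.34 CPM through a median of 15.9 to 40.6 (n = 16). The groups overlapped, but 12 of 16 Holstein-Friesian libraries lay above the Charolais median and 8 of 16 above the highest Charolais library. miR-155 was 1.54-fold higher in Holstein-Friesian steers on grass (log2 difference 0.62 ± 0.17 SE, adjusted p = 0.0040). Of all tested miRNAs 14.8% were called higher and 30.2% called in either direction there, so 1 call among the 3 is near the background.

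Averaged over diets, miR-155 was higher in Holstein-Friesian steers by 0.44 ± 0.12 (1.35-fold, adjusted p = 0.0066), where 21.7% of miRNAs were called, and 25 of 32 Holstein-Friesian libraries were above the Charolais median. On concentrate its range was 7.72 to 19.1 CPM in Charolais (median 13.3) and 6.43 to 22.3 in Holstein-Friesian steers (median 16.1). In all, 12 of 16 Holstein-Friesian libraries were above the Charolais median and 6 of 16 above the highest Charolais library. The log2 difference of 0.25 ± 0.17 did not pass there (adjusted p = 0.446), and 1.57% of miRNAs were called (0.943% higher and 0.629% lower). The change of the breed difference with diet was itself not called for miR-155 (log2 -0.37, 95% interval -0.85 to 0.11, adjusted p = 0.355), so the breed difference is not shown to belong to grass. Both calls held whichever library was left out (0.52 to 0.68 on grass and 0.38 to 0.46 on average). Without both libraries of the steer whose grass library stood apart they were 0.54 (adjusted p = 0.0108) and 0.38 (adjusted p = 0.0140).

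The share of miR-155 relative to miR-342 needs no scaling between libraries, because both are counted in the same one. The log2 ratio of miR-155 to miR-342 was -2.73 ± 0.35 in Charolais and -2.02 ± 0.68 in Holstein-Friesian libraries on grass (SD, n = 16). On concentrate it was -2.55 ± 0.38 and -2.39 ± 0.59. miR-155 was therefore nearer to miR-342 in Holstein-Friesian libraries on grass than in the other 3 combinations, with ranges that overlapped. The ratio does not measure miR-155 alone, as miR-342 itself was at a log2 difference of -0.20 by breed on grass, not called.

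miR-342 was lower on grass in most Holstein-Friesian libraries, but did not pass. It ran from 65.1 to 102 CPM in Charolais (median 76.5) and from 49.3 to 79.5 in Holstein-Friesian libraries (median 67.9). The breeds overlapped: 14 of 16 Holstein-Friesian libraries were below the Charolais median and 7 of 16 below the lowest Charolais library. The log2 difference was -0.20 ± 0.08 (adjusted p = 0.0513). This value lies at the threshold: it passed when any of 9 libraries was left out (Charolais low-RFI replicates 1, 2 and 8 and high-RFI replicates 1 and 3, Holstein-Friesian high-RFI replicates 2 and 3 and low-RFI replicates 4 and 7; log2 -0.22 to -0.21). Its sign depended on the scaling, with 0.01 under total-count scaling, which moved the median of all miRNAs by 0.20 in this comparison.

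miR-150 did not pass by breed. Its log2 difference was -0.31 ± 0.16 on grass (adjusted p = 0.149), where 13 of 16 Holstein-Friesian libraries were below the Charolais median. On concentrate it was -0.01 (adjusted p = 0.998, 95% interval -0.34 to 0.31), with 8 of 16 libraries on each side.

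Other leukocyte miRNAs were examined beside the 3, from a list of 8 of which 7 were tested. In Holstein-Friesian steers on grass, miR-146a and miR-146b, which are induced by inflammatory signals, were called higher with miR-155 (log2 0.95 ± 0.23, adjusted p = 0.0017, and 0.73 ± 0.21, adjusted p = 0.0066). On grass these were 2 of 7, where 14.8% of all tested miRNAs were called higher. Averaged over diets, where 11% were, 3 of 7 were called higher, namely miR-146a (0.70), miR-146b (0.51) and miR-147 (1.10), the last of them at 0.73 CPM. miR-142-5p (0.22), miR-142-3p (0.29), miR-223 (0.34), miR-132 (0.04) and miR-147 (0.81) did not pass on grass. miR-142 is made in all blood cell lineages and miR-223 in myeloid cells. The median over the 7 was 0.34 on grass against 0.01 over all tested miRNAs.

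Markers of connective tissue, muscle fibres and endothelium were also called in the comparison that held miR-155. On grass 5 of 6 smooth muscle and fibroblast miRNAs were called higher in Holstein-Friesian steers (miR-143, miR-199a-3p, miR-199a-5p, miR-214 and miR-21-5p; list median 0.62), where 14.8% of all tested miRNAs were called higher. On concentrate it was 0 of 6 (median 0.12), where 0.943% were, with 0 of the 6 at an unadjusted p under 0.05. Their summed level on grass ranged from 18162 to 40618 CPM in Charolais and from 16427 to 116968 CPM in Holstein-Friesian libraries. Of 8 muscle fibre miRNAs 2 were called lower there, miR-133a (-0.43, adjusted p = 0.0173) and miR-486 (-0.58, adjusted p = 0.0015), and 1 higher, miR-206 (0.81, adjusted p = 0.0043), against 15.4% and 14.8% of all tested miRNAs. Of the 2 arms of endothelial miR-126, miR-126-3p was called higher (0.34, adjusted p = 0.0090) and miR-126-5p was at 0.03. The summed muscle fibre level includes miR-486, which is also of red blood cells. On grass it ranged from 150769 to 333487 CPM in Charolais and from 87916 to 237097 CPM in Holstein-Friesian libraries. The summed endothelial level on grass ranged from 4730 to 8853 and from 4449 to 8977 CPM. Erythrocyte miR-451 and miR-144 did not pass there (0.03 and 0.12). The part of these cells in the miR-155 difference was not tested.

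**Figure D2:**
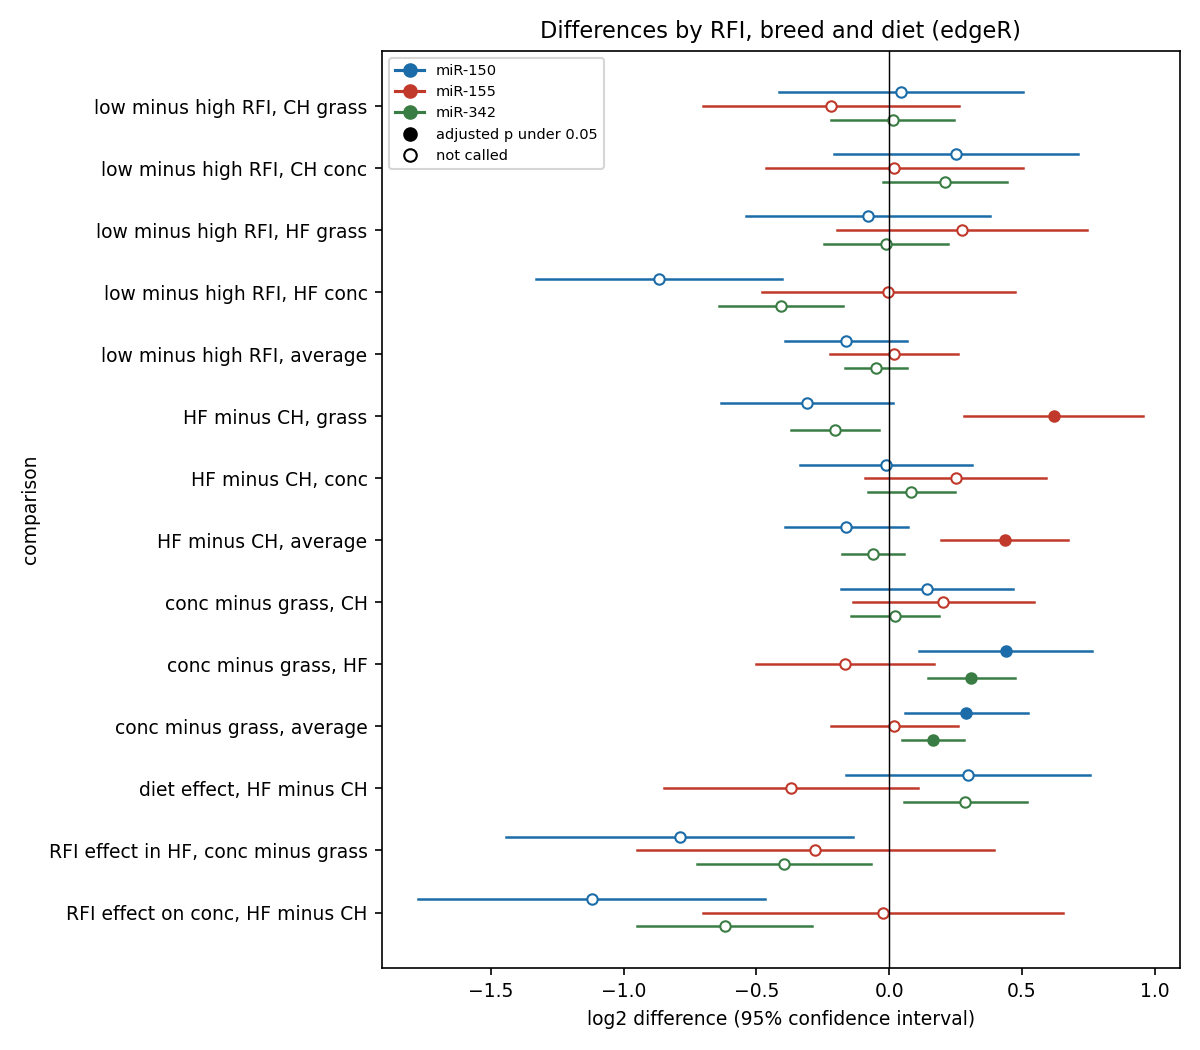
Log2 difference of miR-150, miR-155 and miR-342 in each of the 14 comparisons (horizontal axis, edgeR estimate with its 95% confidence interval; CH is Charolais, HF Holstein-Friesian, conc concentrate), filled where the adjusted p was under 0.05. miR-155 is filled for breed on grass and on average, miR-150 and miR-342 for diet in Holstein-Friesian steers and on average, and the RFI comparisons hold open points only.

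Diet was compared to ask what the change from grass to concentrate did within each breed. In Holstein-Friesian steers miR-342 ran from 49.3 CPM through a median of 67.9 to 79.5 on grass, and from 61.6 through 76.8 to 157 on concentrate (n = 16 each). The diets overlapped, with 14 of 16 concentrate libraries above the grass median and 7 of 16 above the highest grass library. miR-342 was 1.24-fold higher on concentrate (log2 0.31 ± 0.08, adjusted p = 0.0025), among the 10.7% of miRNAs called higher and the 24.2% called in all. Its mean went from 66.8 to 94.99 CPM in high-RFI and from 66.3 to 71.7 CPM in low-RFI Holstein-Friesian steers. That difference between RFI classes did not pass as an interaction by edgeR (adjusted p = 0.724).

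miR-150 was higher in the same comparison by 1.36-fold (0.44 ± 0.16, adjusted p = 0.0393). It ran from 12.7 through 23.6 to 38.5 CPM on grass and from 18.6 through 29.0 to 61.5 on concentrate, with 10 of 16 concentrate libraries above the grass median and 6 of 16 above the highest grass library. Its mean went from 24.8 to 44.4 CPM in high-RFI and from 23.6 to 24.3 CPM in low-RFI Holstein-Friesian steers, a difference between RFI classes that did not pass as an interaction (adjusted p = 0.724). miR-155 did not pass (-0.17 ± 0.17, adjusted p = 0.507), with 8 of 16 concentrate libraries on each side of the grass median.

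In Charolais steers 0 of the 3 passed, where 20.8% of miRNAs were called (9.43% higher, 11.3% lower) and 104 had an unadjusted p under 0.05. The log2 differences were 0.14 ± 0.16 for miR-150, 0.20 ± 0.17 for miR-155 and 0.02 ± 0.08 for miR-342, with unadjusted p of 0.383, 0.237 and 0.783. By DESeq2 and limma-voom 0 of the 3 passed as well. The difference between the breeds' diet effects was not called either: it was 0.30 ± 0.23 for miR-150 (adjusted p = 0.442) and 0.29 ± 0.12 for miR-342 (adjusted p = 0.140), where 3.46% of miRNAs were called (2.2% higher, 1.26% lower).

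Averaged over breeds, miR-342 (0.17 ± 0.06, adjusted p = 0.0209) and miR-150 (0.29 ± 0.12, adjusted p = 0.0428) were called higher on concentrate, and miR-155 was not (0.02, adjusted p = 0.915), with 34% of all tested miRNAs called and 17.9% called higher. The concentrate and grass libraries overlapped, with 20 of 32 concentrate libraries above the grass median for miR-342 and 18 of 32 for miR-150. For miR-155 it was 25 of 32, although its fitted difference was close to 0.

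The diet calls depended on the scaling and the filter. Under total-count scaling, which moved the median of all miRNAs by -0.33 in Holstein-Friesian steers and by -0.25 on average, miR-342 in Holstein-Friesian steers was at -0.01 and miR-150 at 0.04, and neither passed. Relative to those shifted medians both stayed above the typical miRNA. With no filter beyond 1 count, neither passed in Holstein-Friesian steers (0.26 and 0.38, adjusted p = 0.0859 and 0.164) or on average (0.13 and 0.26). Under total-count scaling without miR-10b neither passed in Holstein-Friesian steers (0.27 for miR-342 and 0.38 for miR-150, adjusted p = 0.0678 and 0.134) or on average (0.17 and 0.28). miR-150 alone also did not pass with a mean of at least 10 CPM (0.43, adjusted p = 0.0655, and 0.30 on average), with the steer as a random block (0.37, adjusted p = 0.0973, and 0.24 on average), and in Holstein-Friesian steers with relative log expression size factors (0.44, adjusted p = 0.0531). The Holstein-Friesian call was thus lost in 6 of 12 alternatives for miR-150 and in 3 of 12 for miR-342.

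The miR-150 call in Holstein-Friesian steers was also lost without any of 12 libraries (low-RFI grass replicates 1, 2 and 8, high-RFI grass replicates 2, 4, 5 and 7, high-RFI concentrate replicates 2, 3, 4 and 5, low-RFI concentrate replicate 5), with log2 values from 0.37 to 0.43 and adjusted p from 0.0521 to 0.0892. On average it was lost without any of 24 of 64 libraries, with log2 values from 0.25 to 0.29 and adjusted p from 0.0509 to 0.0815. These 24 were low-RFI Charolais grass replicates 1, 3 and 8 and concentrate replicates 1, 3, 6 and 8, high-RFI Charolais grass replicates 1, 3 and 4 and concentrate replicates 1, 3 and 8, and 11 of the Holstein-Friesian 12, all but low-RFI grass replicate 2. The miR-342 calls held without any single library, at 0.24 to 0.34 in Holstein-Friesian steers and 0.15 to 0.19 on average.

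Blood cell miRNAs were also compared between the diets. In Charolais steers, where 0 of the 3 lymphocyte miRNAs passed, concentrate libraries had higher miR-142-5p (1.06 ± 0.32, adjusted p = 0.0103), miR-142-3p (0.96, adjusted p = 0.0066) and miR-223 (1.24, adjusted p = 0.0061). Erythrocyte miR-451 (1.76 ± 0.53, adjusted p = 0.0106) and miR-144 (1.68, adjusted p = 0.0166) were higher with them. These were 3 of 7 other leukocyte and 2 of 2 erythrocyte miRNAs, where 9.43% of all tested miRNAs were called higher. With 20.8% called in either direction, a count of 0 among the 3 lymphocyte miRNAs sets them apart little. The other leukocyte miRNAs tested, miR-146a (0.24), miR-146b (0.47), miR-147 (-0.43) and miR-132 (-0.10), did not pass.

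In Holstein-Friesian steers, where miR-150 and miR-342 were called, 0 of the 7 other leukocyte miRNAs passed, by edgeR and at an unadjusted p under 0.05 alike. With 24.2% of all tested miRNAs called there, a count of 0 among 7 sets them apart little. miR-142-5p was at 0.32, miR-142-3p at 0.34, miR-223 at 0.38, miR-146a at -0.26, miR-146b at 0.03, miR-147 at 0.13 and miR-132 at 0.03. miR-451 (0.84) and miR-144 (0.51) did not pass there. The summed level of the 2 erythrocyte miRNAs ranged over 779 to 11355 CPM on grass and 824 to 19490 CPM on concentrate in that breed. The breed difference in the diet effect was not called for any of these (miR-223 -0.86, adjusted p = 0.311; miR-451 -0.92, adjusted p = 0.442). Other cells' markers were called in Holstein-Friesian steers. Of 6 smooth muscle and fibroblast miRNAs 3 were lower on concentrate (miR-199a-3p -0.61, miR-214 -0.62 and miR-21-5p -0.80, list median -0.51), where 13.5% of all tested miRNAs were. Of 8 muscle fibre miRNAs 1 was higher, miR-1 (0.78, adjusted p = 2.6e-06). As 10.7% of all tested miRNAs were called higher, 1 of 8 is near the background. The part of blood and of these cells in the diet differences was not tested.

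**Figure D3:**
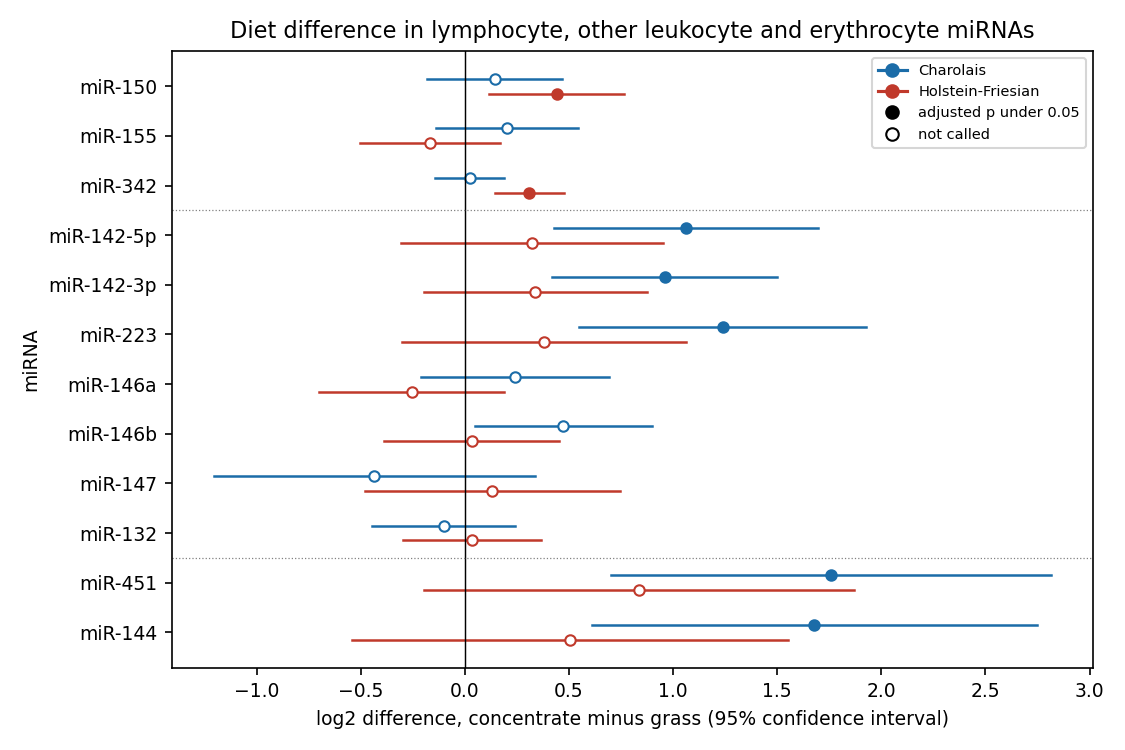
Log2 difference of concentrate minus grass (horizontal axis, edgeR estimate with 95% confidence interval) in Charolais (blue) and Holstein-Friesian steers (red) for the 3 lymphocyte miRNAs, the 7 other leukocyte miRNAs tested and the erythrocyte miR-451 and miR-144, filled where the adjusted p was under 0.05. miR-150 (0.44) and miR-342 (0.31) are filled in Holstein-Friesian steers, while miR-142-5p, miR-142-3p, miR-223, miR-451 and miR-144 are filled in Charolais steers.

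Of 18 further miRNAs that regulate lymphocyte development and activation but are made by many other cells (the miR-181, miR-17 to miR-92, miR-15, miR-16 and miR-29 families, miR-182 and miR-326), 2 were called higher and 1 lower on concentrate in Holstein-Friesian steers, against 4 and 2 in Charolais steers and 7 and 3 on average. Over all tested miRNAs 10.7% were called higher and 13.5% lower in Holstein-Friesian steers, 9.43% and 11.3% in Charolais steers, and 17.9% and 16% on average. Their median difference on average was 0.17, against 0.01 over all tested miRNAs. By breed, 0 were called higher and 2 lower on grass (miR-29a and miR-29c), where 14.8% and 15.4% of all tested miRNAs were called.

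RFI was compared within each breed and diet to ask which miRNAs go with feed efficiency. By edgeR 0 of the 318 miRNAs were called in these comparisons (0%), with 10 to 34 at an unadjusted p under 0.05, and the 3 did not pass by DESeq2 or limma-voom either. In Holstein-Friesian steers on concentrate, where 34 miRNAs had an unadjusted p under 0.05, miR-150 in high-RFI libraries ran from 22.9 CPM through a median of 45.9 to 61.5. In low-RFI libraries it ran from 18.6 through 22.5 to 41.2 (n = 8 each). All 8 low-RFI libraries were below the high-RFI median and 5 of 8 were below the lowest high-RFI library. 7 of the 8 low-RFI libraries had at most 24.4 CPM, and replicate 5 alone had 41.2.

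miR-342 in the same groups ran from 64.3 through 87.8 to 157 CPM at high RFI and from 61.6 through 69.8 to 80.0 at low RFI. All 8 low-RFI libraries were again below the high-RFI median, but only 1 of 8 was below the lowest high-RFI library. For each of miR-150 and miR-342, 5 of 8 high-RFI libraries were above the highest low-RFI library. The log2 differences were -0.87 for miR-150 and -0.41 for miR-342, with adjusted p = 0.0943 by edgeR for both. DESeq2 gave 0.0961 for both, and limma-voom 0.157 and 0.226. For miR-155 the difference was close to 0 (95% interval -0.48 to 0.47), with group medians of 16.4 and 14.6 CPM.

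Single libraries decided on which side of the threshold these values fell. Without high-RFI replicate 1, which had the lowest miR-150 and miR-342 of its group, miR-150 was at -0.96 and miR-342 at -0.47 (adjusted p = 0.0207 for both). Without low-RFI replicate 5, miR-150 was at -1.02 (adjusted p = 0.0205). Without high-RFI replicate 6, which held the 157 CPM, miR-342 was at -0.26 (adjusted p = 0.518). The values also passed under total-count scaling without miR-10b (-1.002 and -0.58, adjusted p = 0.0442 for both), which moved the median of all miRNAs by -0.12. With every other library left out in turn they did not pass, and over all 16 the adjusted p ran from 0.0205 to 0.320 for miR-150 and from 0.0207 to 0.518 for miR-342.

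**Figure D4:**
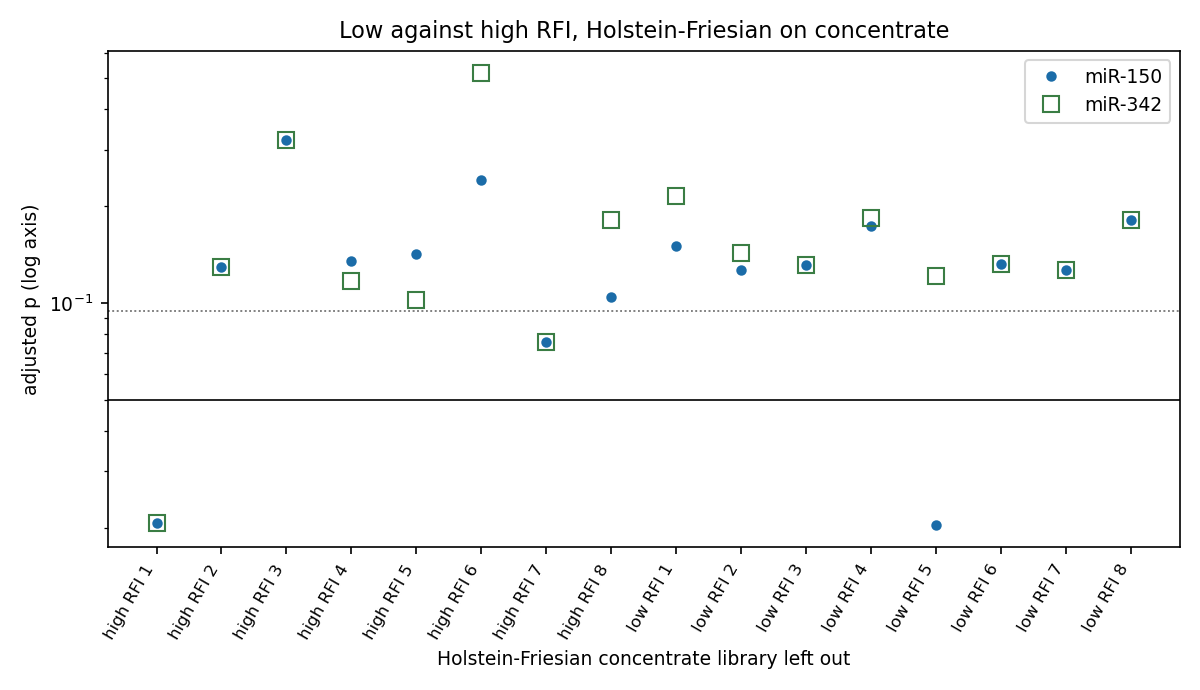
Adjusted p of low against high RFI in Holstein-Friesian steers on concentrate (vertical log axis) when each of the 16 libraries (horizontal axis) was left out, with dots for miR-150 and squares for miR-342; the solid line is 0.05 and the dotted line the value with all libraries, 0.0943. Points under the solid line occur for high-RFI replicate 1 (both miRNAs) and low-RFI replicate 5 (miR-150).

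Of the other blood miRNAs none passed in these 16 libraries, and 3 of the 7 leukocyte miRNAs had the opposite sign. Low minus high RFI was -0.65 for miR-142-5p, -0.69 for miR-142-3p, -0.87 for miR-223 and -0.21 for miR-132. It was -0.94 for miR-451 and -0.96 for miR-144, against 0.24 for miR-146a, 0.37 for miR-146b and 0.05 for miR-147. The median over the 7 leukocyte miRNAs was -0.21 and that over all tested miRNAs -0.05. miR-451 ran from 813 to 19333 CPM at high RFI and from 880 to 11901 CPM at low RFI. Their part in the miR-150 and miR-342 values was not tested.

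In the other 3 settings no member passed. In Charolais steers on concentrate low minus high RFI was 0.25 ± 0.23 for miR-150, 0.02 ± 0.24 for miR-155 and 0.21 ± 0.12 for miR-342. On grass it was 0.04, -0.22 and 0.01 in Charolais and -0.08, 0.27 and -0.01 in Holstein-Friesian steers, all with SEs from 0.12 to 0.24. The smallest unadjusted p among these 9 values was 0.0741, for miR-342 in Charolais steers on concentrate. Averaged over breed and diet the differences were -0.16 ± 0.12, 0.02 ± 0.12 and -0.05 ± 0.06.

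Whether the RFI difference itself changed was tested by interaction terms. On concentrate, the Holstein-Friesian minus the Charolais difference was a log2 of -1.12 ± 0.33 for miR-150 (adjusted p = 0.172), -0.62 ± 0.16 for miR-342 (adjusted p = 0.123) and -0.02 ± 0.34 for miR-155. By edgeR 0% of miRNAs were called in this comparison and 39 had an unadjusted p under 0.05. It passed for miR-150 (-1.27) and miR-342 (-0.66), both at an adjusted p of 0.0108, without high-RFI Charolais concentrate replicate 3, the library with the 49098 CPM of miR-451, and for miR-342 (-0.68, adjusted p = 0.0238) without high-RFI Holstein-Friesian concentrate replicate 1. Between the diets in Holstein-Friesian steers the change was -0.79 ± 0.33 for miR-150, -0.28 ± 0.34 for miR-155 and -0.40 ± 0.16 for miR-342 (adjusted p = 0.724, 0.859 and 0.724), with 0% of miRNAs called and 19 at an unadjusted p under 0.05.

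Whether the 3 miRNAs rose and fell together from steer to steer was examined on deviations from the group means, over 64 libraries that share a scaling. miR-150 and miR-342 were weakly related (Pearson r = 0.33, permutation p = 0.0078, adjusted over 3 pairs 0.0235; Spearman rho = 0.34, permutation p = 0.0056, adjusted 0.0167). The permutation took the 64 libraries as separate, although 5 steers gave 2 each. With 1 library for each of the 59 steers the r fell to 0.23. Without the 2 libraries farthest in miR-150 it was 0.27 and its adjusted permutation p 0.0978. The relation thus depends on which libraries are kept. Its r was 0.49 on concentrate and 0.13 on grass (n = 32 each).

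For miR-155 no relation passed with TMM scaling. Its r was -0.01 with miR-150 (rho 0.00, permutation p = 0.942 and 0.977) and 0.12 with miR-342 (rho 0.14, permutation p = 0.327 and 0.273). Under total-count scaling the 3 pairs had an r from 0.51 to 0.76, so the low r of miR-155 with the others depended on the scaling.

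**Figure D5:**
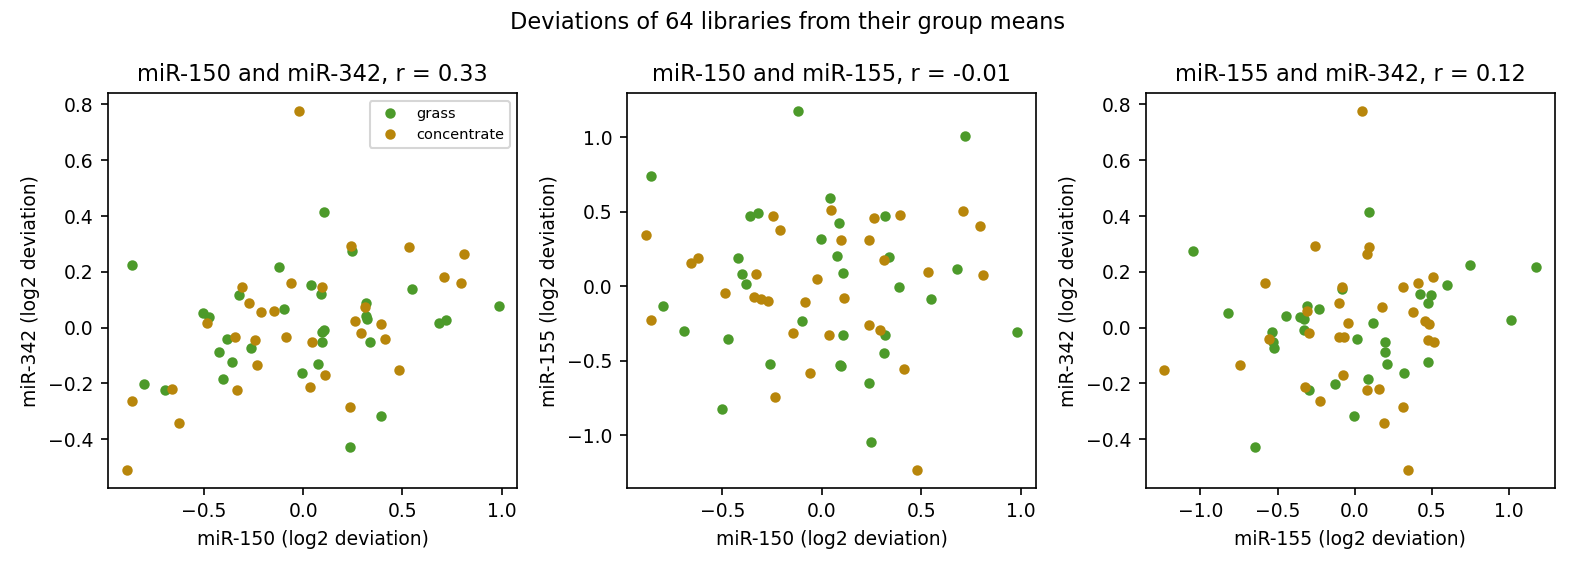
Deviation of each of 64 libraries from its group mean (both axes, log2 CPM) for each pair of the 3 miRNAs, grass libraries in green and concentrate libraries in gold. The cloud leans upward for miR-150 with miR-342 (r = 0.33) and shows little slope for miR-150 with miR-155 (-0.01) and for miR-155 with miR-342 (0.12).

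Erythrocyte miR-451 was related to miR-150. Its deviations had an r of 0.47 with miR-150 (rho 0.43, permutation p = 5e-05 and 0.00031, adjusted over 3 relations 0.00015 and 0.00093), and 0.43 without the 2 farthest libraries. Within diets the r was 0.42 on grass and 0.53 on concentrate. With miR-155 it was 0.20 (rho 0.26, adjusted p = 0.175 and 0.0609) and with miR-342 0.11 (rho 0.10, adjusted p = 0.392 and 0.441). Under total-count scaling the r was 0.68 with miR-150, 0.50 with miR-155 and 0.59 with miR-342.

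The miRNAs most like each of the 3 were named by the highest r of such deviations over 64 libraries, among 318 tested miRNAs. For miR-150 they were miR-92a (0.58), miR-17-5p (0.52) and miR-20a (0.51), and the 3 highest in log2 CPM itself were miR-17-5p, miR-20a and miR-92a again. miR-142-5p (0.49) ranked 6 and miR-451 ranked 10 in this order, while miR-146a (-0.30) and miR-146b (-0.41) ran against miR-150.

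For miR-155 the most alike were miR-222 (0.74), miR-146a (0.59) and miR-221 (0.59), and in log2 CPM itself miR-222 (0.76), miR-146a (0.65) and let-7i (0.61). By deviations muscle fibre miR-133a had an r of -0.54 with miR-155, miR-143 an r of 0.44 and miR-21-5p an r of 0.37. No other muscle fibre miRNA had its r recorded. Among leukocyte miRNAs the r with miR-155 was 0.52 for miR-146b, 0.39 for miR-142-3p, 0.30 for miR-142-5p and 0.27 for miR-223. For miR-342 the 3 most alike had lower values: miR-130a (0.41), miR-195 (0.40) and let-7i (0.39), and in log2 CPM itself miR-29d-5p (0.45), miR-29b (0.43) and miR-193a-3p (0.42). By deviations the r of miR-342 was 0.07 with miR-142-5p, 0.17 with miR-142-3p and 0.15 with miR-223. It was -0.01 with miR-146a and 0.02 with miR-146b. Within each measure no miRNA stood among the 3 most alike of more than 1 of the lymphocyte miRNAs. Across the measures let-7i did, for miR-155 in log2 CPM itself and for miR-342 by deviations.

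The 5 steers sampled on both diets gave a comparison within animals, 4 Charolais and 1 Holstein-Friesian. miR-150 went from 29.2 to 55.8, 47.4 to 18.6, 54.5 to 31.1, 16.9 to 24.9 and, in the Holstein-Friesian steer, 38.5 to 22.9 CPM. It was higher on concentrate in 2 of 5 (mean log2 difference -0.28 ± 0.97, SD, exact sign-flip permutation p = 0.562, two-sided). The first of these steers was classed high RFI on grass and low RFI on concentrate.

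miR-155 went from 16.7 to 19.1, 11.7 to 11.4, 9.94 to 12.4, 10.01 to 17.1 and 30.3 to 19.6 CPM, higher in 3 of 5 (0.12 ± 0.51, exact permutation p = 0.625). miR-342 went from 82.7 to 94.6, 77.4 to 69.4, 80.3 to 63.6, 65.1 to 74.6 and 67.6 to 64.3 CPM, higher in 2 of 5 (-0.03 ± 0.23, exact permutation p = 0.75). With 5 pairs the smallest p this test can give is 0.0625. None of the 3 had 1 direction in all 5 steers with TMM scaling. Under total-count scaling miR-342 was lower on concentrate in all 5 (-0.73, exact permutation p = 0.0625), and miR-150 (-0.98) and miR-155 (-0.57) were higher in 1 of 5 each (exact permutation p = 0.188 for both). This scaling moved the median of all miRNAs by -0.25 in the diet comparison over all libraries. The largest falls were in the Holstein-Friesian steer, whose grass library stood apart (-2.49 for miR-150, -2.36 for miR-155 and -1.82 for miR-342). These 5 values are therefore not specific to the 3 miRNAs.

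By gene order in RefSeq's annotation of a later cattle assembly than the authors', MIR342 lies within the span of EVL. MIR155 lies between the coding genes MRPL39 and NCAM2.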

How the data were processed

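RNA was extracted from skeletal muscle with a Qiagen RNeasy Plus Universal kit and made into libraries with an Illumina TruSeq stranded kit, per the labels' protocols. The submitters' processing notes name FastQC 0.11.8, cutadapt 2.6, R 3.4, edgeR 3.5 and the build ARS-UCD 1.2. Which aligner and counter were run, and how small RNA was selected, is not stated in these sources. What the authors deposited are estimated counts per miRNA, not normalized, for 1030 names in 64 libraries; the 3 miRNAs had whole counts. Values were rounded, and 1 name with empty cells was left out.

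edgeR 4.0.16 in R 4.3.3 was used with TMM scaling, filterByExpr over the 8 groups (318 names, 99.99% of counts) and a robust quasi-likelihood fit of 8 group means (56 residual degrees of freedom). The fit was also run on counts simulated from its own dispersions, without steers sampled on both diets. Such a run cannot show how the fit does where these data depart from its model. In each of 14 comparisons p-values were adjusted over the 318 names by Benjamini-Hochberg and called under 0.05. Alternatives were DESeq2 1.42.0, limma-voom (limma 3.58.1), other scalings and filters, leave-outs and a block for the animal. CPM levels carry no prior count; correlations used log2 CPM with a prior count of 2 and 100000 permutations. The replicates are separate steers. The labels' animal numbers pair 5 steers' libraries across diets (estimated correlation of an animal's libraries over all miRNAs 0.392). Counts without molecular identifiers speak to counting error only. The SEs and p-values of the fits rest on the spread between libraries within groups. Named were the 3 miRNAs, per miRNA the 3 most alike by each measure, the tested list of other leukocyte miRNAs, miR-451 and miR-144, and other listed miRNAs where 5 or fewer were called; miRNAs with a shared seed could not be named without sequences. The correlations of miR-142-5p, miR-142-3p, miR-223, miR-143, miR-21-5p, miR-133a, miR-146a and miR-146b with the 3 were chosen after they were seen. The miRNAs and lists were chosen with earlier results of these data known.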

Additional observations from a re-analysis of the deposited data

Results flagged for a closer look

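In 24 groups tested (3 miRNAs in 8 groups of 8), 3 had a library whose gap to its neighbour was larger, as a share of the group's range, than Dixon's 95% critical value of 0.526; chance flags about 1 in 20 groups. miR-150 was 41.2 CPM in low-RFI Holstein-Friesian concentrate replicate 5, where the next library had 24.4 CPM (gap 0.743 of the range). miR-155 was 6.43 CPM in high-RFI Holstein-Friesian concentrate replicate 5, where the next had 14.3 CPM (0.535). miR-342 was 102 CPM in low-RFI Charolais grass replicate 6, where the next had 78.6 CPM (0.675). The same high-RFI Holstein-Friesian library that was low in miR-155 had 59.3 CPM of miR-150, the second highest of its group.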

How the results depend on the processing

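The miR-155 breed calls on grass and on average held in every alternative run (0.53 to 0.91 and 0.37 to 0.64). The miR-342 diet calls were lost under both total-count scalings and with no filter beyond 1 count, and held in the other alternatives.

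Under total-count scaling, miR-150 was -0.080 and miR-342 -0.13 for RFI in Charolais on grass, and miR-155 -0.10 for RFI on average. By breed, miR-342 was 0.012 on grass and 0.089 on average and miR-150 0.037 on concentrate. By diet, miR-150, miR-155 and miR-342 were -0.052, -0.021 and -0.16 in Charolais steers and -0.0081, -0.30 and -0.085 on average, and miR-150 and miR-342 were 0.036 and -0.0080 in Holstein-Friesian steers. miR-155 was -0.57 in the 5 steers on both diets, and the correlations of miR-155 with miR-150 and miR-342 were 0.51 and 0.69. This scaling moved the calls by breed on grass from 47 higher and 49 lower to 47 and 3, by diet in Charolais steers to 2 and 40, in Holstein-Friesian steers to 6 and 88, and on average to 7 and 118.

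Under total counts without miR-10b, which gave 94 higher and 9 lower by breed on grass, RFI values were -0.10 (miR-150) and -0.15 (miR-342) in Charolais on grass, -1.002 and -0.58 in Holstein-Friesian on concentrate, and -0.038 (miR-155) on average. By breed they were 0.036 (miR-342, grass), 0.12 (miR-150, concentrate), 0.023 (miR-150, average) and 0.13 (miR-342, average). By diet they were 0.38 (miR-150) and 0.27 (miR-342) in Holstein-Friesian steers and 0.28, -0.015 and 0.17 for miR-150, miR-155 and miR-342 on average, with the miR-150 and miR-342 calls lost. With relative log expression size factors, miR-155 was -0.013 and 0.034 for RFI in Charolais and Holstein-Friesian on concentrate and 0.046 between them, and miR-150 0.44 by diet in Holstein-Friesian steers, no longer called.

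With a mean of at least 10 CPM, RFI values were -0.027 (miR-150) and -0.038 (miR-342) in Charolais on grass, and for miR-155 -0.0076 and 1.2e-04 in Charolais and Holstein-Friesian on concentrate, 0.0077 between them and -0.0094 on average; miR-150 was 0.43 by diet in Holstein-Friesian steers and 0.30 on average, neither called. With no filter beyond 1 count, RFI values were -0.0020 (miR-342, Charolais on grass) and -0.0036 (miR-155, Charolais on concentrate), and diet values 0.38 (miR-150) and 0.26 (miR-342) in Holstein-Friesian steers and 0.26, -0.031 and 0.13 on average, none called.

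By DESeq2 miR-155 was -0.013 and 0.034 for RFI in Charolais and Holstein-Friesian on concentrate and 0.046 between them. By limma-voom it was 0.014 in Holstein-Friesian on concentrate, miR-342 passed by breed on grass (-0.20, adjusted p = 0.0498) and miR-150 was 0.0073 by breed on concentrate. With only the groups compared, miR-342 passed by breed on grass (-0.20, adjusted p = 0.0410).

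For pairing, the fit with a random replicate block for the animal gave miR-155 -0.040 and 0.068 for RFI in Charolais and Holstein-Friesian on concentrate and 0.11 between them, and miR-150 0.015 by breed on concentrate, 0.37 by diet in Holstein-Friesian steers and 0.24 on average, neither called. A fixed replicate block gave -0.072, 0.085 and 0.16 for miR-155 and 0.030 for miR-150 by breed on concentrate. No other call changed under the block. Without the concentrate libraries of the 5 animals sampled on both diets, of which high-RFI replicate 1 alone is in the Holstein-Friesian comparison, RFI values there were -1.04 (miR-150) and -0.52 (miR-342), both called; miR-155 was -0.012 in Charolais and 0.0017 between breeds, miR-342 -0.72 between breeds and -0.19 by breed on grass, both called. Without both libraries of the steer that stood apart, chosen after seeing the data, RFI values on concentrate were -0.029 (miR-155, Charolais) and -0.95, 0.040 and -0.46 (miR-150, miR-155, miR-342, Holstein-Friesian; miR-150 and miR-342 called), miR-155 was 0.069 between breeds and miR-150 0.014 by breed.

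The correlation of miR-150 with miR-342 was 0.27 without the 2 farthest libraries, 0.13 within grass and 0.23 with 1 library per animal. That of miR-150 with miR-155 was 0.0037 as Spearman's rho, 0.041 without the 2 farthest and 0.017 within concentrate.

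With each library left out in turn, miR-150 ran from -0.073 to 0.23 (RFI, Charolais on grass), -1.02 to -0.79 (RFI, Holstein-Friesian on concentrate), -1.27 to -1.01 (between breeds), -0.086 to 0.062 (breed on concentrate), 0.37 to 0.50 (diet, Holstein-Friesian) and 0.25 to 0.34 (diet, average). miR-155 ran from -0.063 to 0.10 and -0.12 to 0.065 (RFI on concentrate, Charolais and Holstein-Friesian), -0.014 to 0.39 (RFI, Holstein-Friesian on grass), -0.055 to 0.056 (RFI, average), -0.14 to 0.060 (RFI between breeds), -0.39 to 0.022 (RFI between diets) and -0.0085 to 0.091 (diet, average). miR-342 ran from -0.055 to 0.039 and -0.11 to 0.030 (RFI on grass, Charolais and Holstein-Friesian), -0.47 to -0.26 (RFI, Holstein-Friesian on concentrate), -0.68 to -0.42 (between breeds), -0.22 to -0.17 (breed on grass) and -0.011 to 0.12 (breed on concentrate). These fits kept the same 318 miRNAs, a choice made after fits that filtered again (320 to 325 miRNAs) had been seen. With filtering again, RFI in Holstein-Friesian on concentrate passed only without high-RFI replicate 1 (adjusted p = 0.0427 for miR-150 and miR-342) and RFI between breeds only without high-RFI Charolais concentrate replicate 3; miR-150 by diet passed in 14 of 32 fits in Holstein-Friesian steers and 47 of 64 on average, and miR-342 by breed on grass in 9 of 32.

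Where the setting changed a value, the cause was not tested. Depth limits miR-155 most, at 35 to 902 counts a library.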
